A study of Rattus norvegicus with 35 samples.

Results

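MicroRNA (miRNA) levels were compared between 3 treatment durations at the high dose of ketoconazole, 100 mg/kg per day, in rat liver. These were 9 of the 35 liver libraries: 3 of day 3, 3 of day 7 and 3 of day 14, chosen by the dose in their labels. All 9 came from male Sprague-Dawley rats that were 6 weeks old, were dosed by mouth every day and had their livers taken 24 h after the last dose. The libraries of the days were set against each other directly. In the comparisons, 2 other time courses served only to ask whether a difference between days was itself different. These were vehicle controls, given 0.5% methylcellulose (3, 3 and 2 libraries), and the middle dose of 30 mg/kg (3 libraries a day). The labels do not say at which point of the study this age held, so whether the rats of the 3 days also differed in age is not known, and age and length of dosing cannot be told apart within the high dose. The labels give the libraries of a day as replicates without saying that each came from its own rat. The p-values therefore measure spread between libraries of a group, estimated from all 35 libraries together. Those also include a low dose of 10 mg/kg (3 libraries a day), which entered only the filter, the scaling and the fit.

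Ketoconazole is an azole antifungal that inhibits a cytochrome P450 enzyme of sterol synthesis and, at high exposure, several mammalian P450 enzymes, and its use by mouth is limited by liver injury. A miRNA is a short RNA cut from a hairpin precursor; loaded into an Argonaute protein, it pairs with messenger RNAs mainly through its seed, the bases from position 2 to position 8, and lowers their stability and translation. Each hairpin can give a 5p arm and a 3p arm. Liver RNA is dominated by a few hepatocyte miRNAs, so the counts of most others rest on a small part of each library. The samples are whole tissue, in which fewer cells of a type and less RNA per cell cannot be told apart.

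The mature sequences of the miRNAs that the results turn on are given first, from RefSeq's table for the GRCr8 assembly, which held 292 of the 328 miRNAs tested. Capitals mark the seed. The first set shares 1 seed, yet 1 member changed with time and the others did not pass the test:
miR-15b-5p: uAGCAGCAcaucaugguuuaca
miR-16-5p: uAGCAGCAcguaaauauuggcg
miR-195-5p: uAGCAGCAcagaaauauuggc
miR-322-5p: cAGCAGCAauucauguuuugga
miR-497-5p: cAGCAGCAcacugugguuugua

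The second set is the miR-30 family, whose members had higher day 14 values in all libraries:
miR-30a-5p: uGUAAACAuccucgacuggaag
miR-30c-5p: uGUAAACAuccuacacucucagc
miR-30e-5p: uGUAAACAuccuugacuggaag

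The third set is the 3p arms of the miR-29 family, which had changes of like size from day 3 to day 14:
miR-29a-3p: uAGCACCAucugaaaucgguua
miR-29b-3p: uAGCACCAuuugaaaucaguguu
miR-29c-3p: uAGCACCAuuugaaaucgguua

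The last set has no shared seed and holds both arms of the hairpin that differed most from the middle dose, the other miRNA called in that comparison, and miRNAs whose lower day 14 values are described further on:
miR-582-5p: uACAGUUGuucaaccaguuacu
miR-582-3p: aACCUGUUgaacaacugaaccc
miR-331-3p: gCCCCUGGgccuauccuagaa
miR-34a-5p: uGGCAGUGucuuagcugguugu
miR-136-3p: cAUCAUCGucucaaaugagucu
miR-434-3p: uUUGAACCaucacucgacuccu
miR-411-5p: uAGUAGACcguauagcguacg

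The 292 sequences had 234 different seeds, of which 11 were shared by 3 or more tested miRNAs.

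The 9 libraries held 2665943 to 4749001 miRNA counts, with a median of 3911018. Of 763 miRNAs listed, 214 had 0 counts in all 9 libraries and 328 passed the filter on low counts. The 435 left out included 221 with some count in these libraries, and together those left out made up at most 0.00824% of a library. miR-22-3p took a mean of 19.4% of the counts and miR-192-5p 16.5%, and the 10 most abundant miRNAs together took 70.1 to 71.6% at day 3, 71.7 to 72.1% at day 7 and 72 to 72.6% at day 14. The 3 most abundant, with miR-148a-3p at 5.61%, were all on the list of hepatocyte miRNAs. Of 7 miRNAs of skeletal and heart muscle, 4 had 0 counts in all 9 libraries. Other members of that list were detected: miR-499-5p and miR-133a-3p had counts in all 9 libraries and passed the filter. Levels are in CPM, a miRNA's counts as a share of its library, with library sizes scaled by TMM, which assumes that most miRNAs do not differ. The scaling factors were 1.054 to 1.088 at day 3, 0.942 to 1.055 at day 7 and 0.857 to 0.928 at day 14, so the scaling itself moved with the day.

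Few miRNAs passed the test between days, and those that did separated day 14 from day 3. Between day 7 and day 3, edgeR's quasi-likelihood test called 0 of 328 miRNAs at an adjusted p under 0.05 (0% of those tested), with 13 at an unadjusted p under 0.05 (3.96%, 1 higher at 0.305% and 12 lower at 3.66%). Between day 14 and day 3 it called 3 (0.915%), 1 higher (0.305%) and 2 lower (0.61%), with 59 at an unadjusted p under 0.05 (18%, 31 higher at 9.45% and 28 lower at 8.54%). Between day 14 and day 7 it called 0 (0%), with 19 at an unadjusted p under 0.05 (5.79%, 10 higher at 3.05% and 9 lower at 2.74%). The test for any difference between the 3 days called 1 miRNA (0.305%), miR-15b-5p, with an adjusted p of 0.0224, and 49 had an unadjusted p under 0.05 (14.9%). DESeq2 called 0, 23, 0 and 5 in these comparisons. Its 23 between day 14 and day 3 held the 3 above and, of the miRNAs described further on, miR-15b-3p, miR-18a-5p, miR-21-5p, miR-22-3p, miR-29b-3p, miR-30b-5p, miR-34a-5p, miR-92b-3p, miR-101a-3p, miR-136-3p, miR-136-5p, miR-192-5p, miR-200b-3p, miR-328a-3p, miR-331-3p, miR-411-5p, miR-434-3p and miR-582-3p. Library size alone as scaling moved the median of all miRNAs by -0.26 in this comparison.

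The differences were small for most miRNAs. The median log2 fold change over the 328 was -0.04 for day 7 minus day 3, 0.03 for day 14 minus day 3 and 0.08 for day 14 minus day 7, with a median standard error of 0.21 to 0.22. A change of at least 2-fold was fitted for 8, 20 and 11 miRNAs (2.44%, 6.1% and 3.35%). The 3 libraries of one day lay wholly apart from the 3 of the other for 50 miRNAs between days 7 and 3 (15.2%), 100 between days 14 and 3 (30.5%) and 44 between days 14 and 7 (13.4%). Log2 fold changes above 0 made up 44.5%, 56.1% and 61.9% of the miRNAs.

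**Figure D1:**
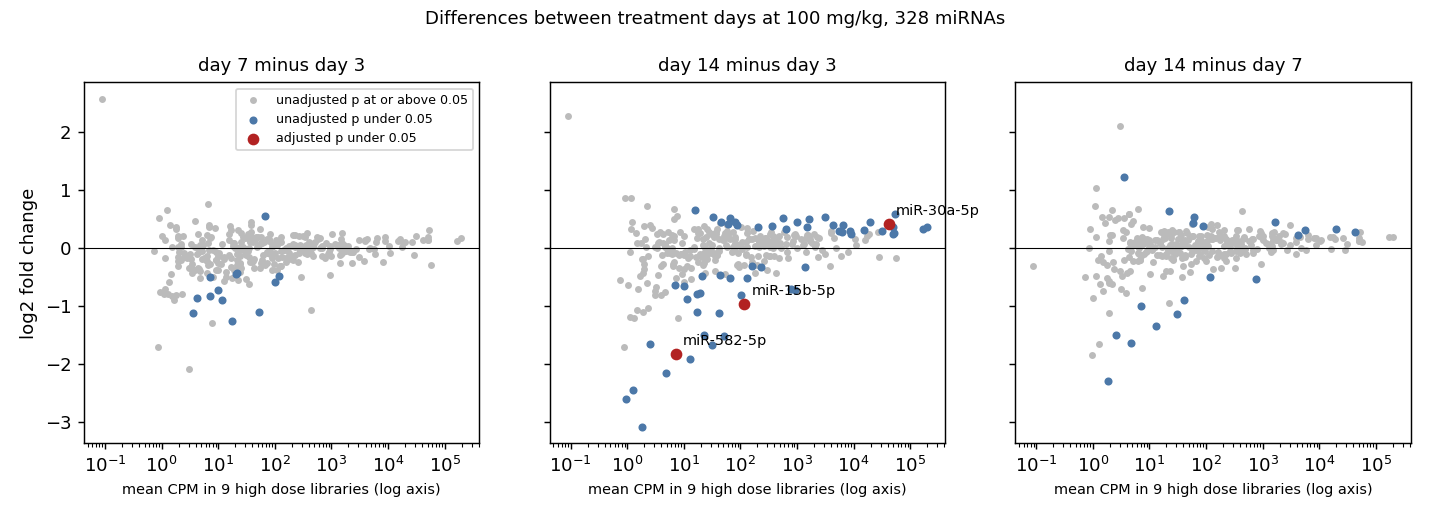
Log2 fold change between days at 100 mg/kg (vertical) against mean CPM of the 9 libraries (horizontal, log axis) for 328 miRNAs in each comparison. Red points have an adjusted p under 0.05 and are found in day 14 minus day 3 alone, where 3 miRNAs are named; blue points have an unadjusted p under 0.05 (13, 59 and 19 with the red ones).

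On a principal component plot of log2 CPM, the first component held 27.7% of the variance of the 9 libraries. Its scores were -4.6, -1.59 and -4.65 for the day 3 libraries, 0.48, 0.47 and -2.75 for day 7 and 3.26, 4.48 and 4.89 for day 14. The day 14 libraries therefore lay on one side of all others, while a day 7 library, replicate 3, lay among those of day 3. The second component, with 19.3%, separated libraries of the same day: replicate 2 of day 14 had a score of 5.43 and replicate 3 a score of -4.76.

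**Figure D2:**
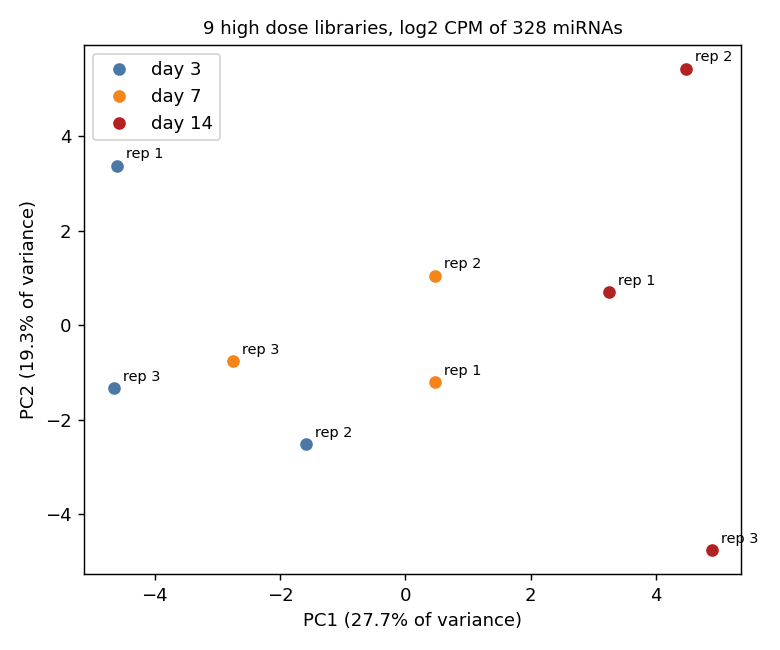
First and second principal components of log2 CPM over 328 miRNAs for the 9 libraries at 100 mg/kg, coloured by day and labelled by replicate. Day 14 lies at 3.26 to 4.89 on the first axis, and the second axis spreads day 14 replicates 2 and 3.

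miR-15b-5p, of the miR-15/16 family that represses cyclins and BCL2, fell from day to day at the high dose. Its level was 182.5, 131.6 and 156.5 CPM in the 3 libraries of day 3, 125.7, 101.0 and 111.8 CPM at day 7 and 86.6, 75.4 and 78.8 CPM at day 14. The 3 days did not overlap, and each later day lay below the one before. From day 3 to day 14 it fell by 0.96 on the log2 scale (standard error 0.19, adjusted p = 0.00485), to 0.513 of its day 3 level. The 2 steps were of like size, -0.48 ± 0.18 (standard error) from day 3 to day 7 and -0.49 ± 0.19 from day 7 to day 14, and neither passed alone (adjusted p = 0.608 and 0.518). The other arm of the hairpin, miR-15b-3p, had a log2 fold change of -0.77 ± 0.25 from day 3 to day 14, with an adjusted p of 0.078. The call on miR-15b-5p between days 14 and 3 was kept under all 15 alternatives tried, with values from -1.22 to -0.91 and adjusted p from 6.564e-05 to 0.0437. In the vehicle controls miR-15b-5p was also lower at day 14 than at day 3, with a log2 fold change of -0.72. The test of the difference between the 2 time courses, given further on, did not call it.

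The rest of the miR-15/16 family did not pass. Of the 5 tested members on the list used here, miR-15b-5p alone was called. The list's median was 0.02 against 0.03 for all miRNAs tested (-0.07 to 0.07 with a library left out). miR-15a-5p, of the same family, was tested and not called, but it is not on that list or in its median. Its counts before scaling were 2316, 2203 and 2073 at day 3 and 2252, 1655 and 1501 at day 14. The day 14 libraries of replicates 2 and 3 were smaller than those of day 3. miR-16-5p, whose gene lies beside that of miR-15b within Smc4 in the GRCr8 annotation, was measured at 7067, 5617 and 5919 CPM at day 3 and at 5899, 5686 and 5390 CPM at day 14. These ranges overlapped, and the log2 fold change was -0.13 ± 0.15 (adjusted p = 0.777). Under library size alone, all 5 members of the list lay below 0.

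miR-30a-5p, the most abundant member of a family known for restraining epithelial change and fibrosis, rose by day 14. It was counted at 39532, 34728 and 36239 CPM at day 3, at 37496, 41987 and 42143 CPM at day 7 and at 45811, 53163 and 48125 CPM at day 14. Day 14 lay above all 6 earlier libraries, while days 3 and 7 overlapped. The rise from day 3 to day 14 was 0.41 ± 0.09 on the log2 scale, or 1.33-fold (adjusted p = 0.0152). The call depended on single libraries, on the filter and on the scaling. It was lost without day 3 replicate 1, 2 or 3 (0.40, 0.37 and 0.40, adjusted p = 0.058, 0.0693 and 0.0792) and without day 14 replicate 1 or 2 (0.40 and 0.32, adjusted p = 0.054 and 0.213). With no low-count filter the difference was 0.42 (adjusted p = 0.0584) and with library size alone 0.15 (adjusted p = 0.259).

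All 5 members of the 5p arms of the miR-30 family had day 14 libraries wholly above those of day 3, as did 16.8% of all miRNAs tested. Grouped after their values were seen, they had a median log2 fold change of 0.39, and 1 of 5 was called. miR-30b-5p stood at 3795, 3560 and 3790 CPM at day 3 and at 5090, 5088 and 4469 CPM at day 14, with a log2 fold change of 0.39 ± 0.11 (adjusted p = 0.0599). miR-30d-5p, miR-30e-5p and miR-30c-5p had values of 0.44, 0.31 and 0.29, with adjusted p of 0.0986, 0.127 and 0.108. Their summed level was 72740 to 80510 CPM at day 3, 75080 to 89030 at day 7 and 95890 to 108500 at day 14. With library size alone the median was 0.13, 5 of 5 were above 0 and none was called; in a fit on the 9 libraries alone 4 were called, where 22 of all 303 miRNAs tested were. Of the list, none was called without day 3 replicate 1, 2 or 3 or day 14 replicate 1 or 2. Of the 6 opposite 3p arms, 5 lay above 0, with a median of 0.22 (0.13 without day 14 replicate 1) and none called. In the GRCr8 annotation the genes of miR-30e and 1 of the 2 of miR-30c lie together within Nfyc.

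miR-582-5p was the third miRNA called, at a low level. It was counted at 5.44, 18.9 and 10.3 CPM at day 3, at 6.19, 5.94 and 7.61 CPM at day 7 and at 2.26, 3.32 and 4.45 CPM at day 14. Day 14 lay below all other libraries, and day 3 was the most uneven day, its replicate 2 being the highest of all. miR-582-5p fell by 1.83 on the log2 scale (standard error 0.45, adjusted p = 0.0318). Without day 3 replicate 2 the value was -1.28 (adjusted p = 0.135), and the call was also lost without day 3 replicate 3 (-1.91, adjusted p = 0.0755) and without each day 14 library in turn (-2.08 to -1.66, adjusted p = 0.0532 to 0.141). The other arm, miR-582-3p, had 39.9, 146 and 70.97 CPM at day 3 and 30.5, 24.9 and 35.2 CPM at day 14, a difference of -1.51 ± 0.47 (adjusted p = 0.0764). The same library, day 3 replicate 2, held the highest value of both arms. The hairpin lies within Pde4d in the GRCr8 annotation.

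**Figure D3:**
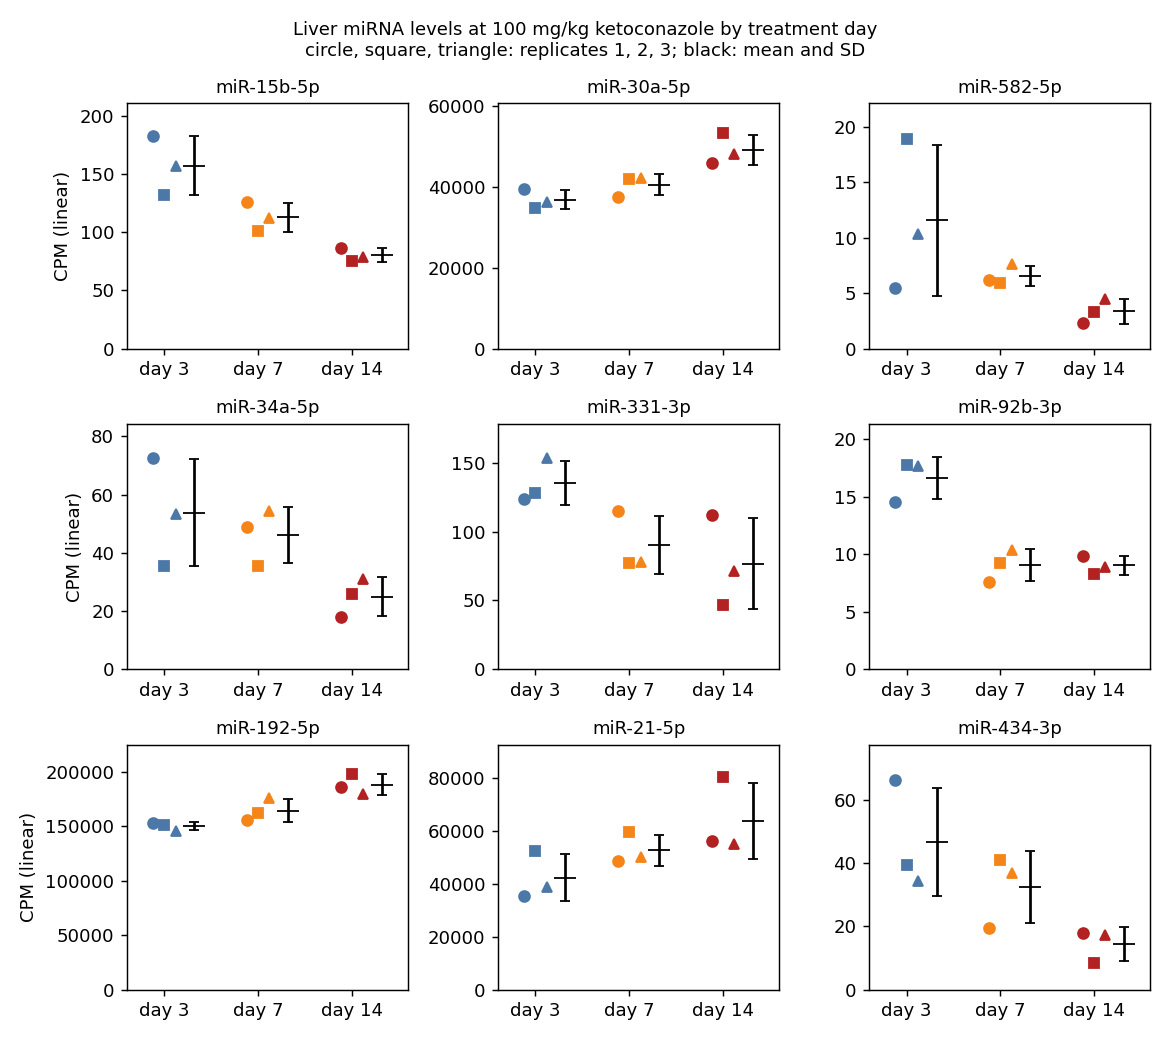
Level in CPM (vertical, linear from 0) of 9 miRNAs in each library at 100 mg/kg by treatment day; symbols give replicates 1, 2 and 3 and black bars the mean with its SD. miR-15b-5p falls over the 3 days without overlap, miR-30a-5p and miR-192-5p are highest at day 14, and miR-582-5p is uneven at day 3.

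A further 8 miRNAs shared an adjusted p of 0.0599 between day 14 and day 3, just above the threshold: miR-34a-5p, miR-30b-5p, miR-409a-5p, miR-22-3p, miR-136-3p, miR-136-5p, miR-192-5p and miR-92b-3p. miR-34a-5p is a transcriptional target of p53 that represses cell cycle genes. It stood at 72.5, 35.6 and 53.4 CPM at day 3, at 48.7, 35.4 and 54.2 CPM at day 7 and at 17.8, 25.7 and 31.1 CPM at day 14. Days 3 and 7 overlapped and day 14 lay below both, with log2 fold changes of -1.12 ± 0.31 against day 3 and -0.90 ± 0.31 against day 7 (adjusted p = 0.0599 and 0.504). DESeq2 gave miR-34a-5p an adjusted p of 0.0211, and without day 3 replicate 2 it passed in edgeR at -1.35 (adjusted p = 0.0338). The other 3 tested members of the miR-34 list had no unadjusted p under 0.05 in this comparison, and the list's median, -0.33, ran from -0.67 without day 14 replicate 1 to 0.08, with 3 of 5 members above 0, without day 14 replicate 3.

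The miRNAs of the hepatocyte list had slightly higher values at day 14, with none called. The list is broad: it holds both arms of miR-22, miR-101a-3p and miR-101b-3p, which a narrower set of hepatocyte markers leaves out. Of the 14 miRNAs of the list, all tested, 13 lay above 0 between day 14 and day 3, with a median of 0.23 against 0.03 over all miRNAs (0.12 without day 14 replicate 1), and the libraries of 8 lay apart, all higher (16.8% of all miRNAs did). In the controls 8 of the 14 lay above 0 with a median of 0.08, and at the middle dose 13 did, with a median of 0.28 and 2 called, both higher (1.52% of all miRNAs were). miR-192-5p, which is enriched in liver and gut, was measured at 153500, 151640 and 146020 CPM at day 3, at 155750, 162030 and 175730 at day 7 and at 186450, 198410 and 179620 at day 14. The 3 days followed each other without overlap, and the difference of 0.32 ± 0.10 had an adjusted p of 0.0599. miR-22-3p, the most abundant miRNA, stood at 181330, 169960 and 170140 CPM at day 3 and at 230740, 226570 and 212470 at day 14 (0.36 ± 0.10, adjusted p = 0.0599), while its other arm, miR-22-5p, had a value of 0.21 ± 0.22 and overlapped between the days.

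miR-122-5p, the best known hepatocyte miRNA, stood at 26003, 23470 and 23277 CPM at day 3 and at 28812, 32183 and 27180 at day 14. Its day 14 libraries lay above those of day 3, and the difference of 0.28 ± 0.14 had an adjusted p of 0.328. miR-101a-3p also followed the order of the days without overlap, at 5521 to 5673 CPM, then 5989 to 6644 and then 7202 to 7565 (0.41 ± 0.15 from day 3 to day 14, adjusted p = 0.0986). The summed level of the list, miR-22-3p included, was 438500 to 459300 CPM at day 3, 449300 to 517000 at day 7 and 516600 to 549700 at day 14. With library size alone 5 members lay above 0 and 9 below, with a median of -0.03 against -0.23 over all miRNAs. The list's median less that of all miRNAs was 0.20 under both scalings. A change of scaling shifts all miRNAs by nearly the same amount, so this likeness was fixed in advance and is no check of the list.

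In all, 6 miRNAs (1.83% of those tested) had 3 days in order without any overlap. miR-15b-5p was the one that fell in value. miR-101a-3p, miR-192-5p, miR-26a-5p, miR-26b-3p and miR-361-3p were ordered upward. miR-26a-5p, whose gene in the GRCr8 annotation lies within Ctdspl, was at 44025, 41949 and 45568 CPM at day 3, at 46421, 50382 and 53976 at day 7 and at 55900, 59596 and 54689 at day 14 (0.37 ± 0.12 from day 3 to day 14, adjusted p = 0.0764). miR-26b-3p had a value of 0.44 ± 0.17 and miR-361-3p one of 0.37 ± 0.20, with adjusted p of 0.137 and 0.387.

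Of the lists, the median farthest from 0 between day 14 and day 3 was that of miRNAs of the imprinted Dlk1-Dio3 region, a cluster expressed from the maternal chromosome that is high in fetal liver and falls after birth. Of 41 listed members in the table, 6 had 0 counts in all 9 libraries and 9 passed the filter. The genes of all 9 lay between Dlk1 and Dio3 in the GRCr8 annotation. miR-409a-5p, the other arm of the listed miR-409a-3p, was tested but is not among the 9. It gave -3.08, with 2, 0 and 1 counts in the day 14 libraries, and was not called. All 9 had log2 fold changes below 0, from -2.44 (miR-376b-3p, which had 3 counts in all at day 14) to -1.10. Their median was -1.67 against 0.03 over all miRNAs. Of the 9, 0 were called and 7 had an unadjusted p under 0.05 (18% of all miRNAs did). The libraries of 6 lay apart, all lower (13.7% of all miRNAs did). Among the high dose libraries, miR-376b-3p, miR-300-3p and miR-431 reached 10 counts at day 3 alone. For these, a value below 0 can follow in part from the filter on low counts. In a fit on the 9 libraries alone, 6 of the list passed the filter, all below 0, with a median of -1.70.

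miR-434-3p, from a hairpin that overlaps Rtl1, stood at 66.3, 39.4 and 34.3 CPM at day 3, at 19.6, 40.9 and 36.8 CPM at day 7 and at 17.8, 8.29 and 17.4 CPM at day 14. Days 3 and 7 overlapped and day 14 lay below both, at -1.67 ± 0.52 against day 3 (adjusted p = 0.0764). miR-411-5p gave -1.49 ± 0.50 and miR-136-3p -1.90 ± 0.55 (adjusted p = 0.0835 and 0.0599). The other arm, miR-136-5p, gave -2.15 ± 0.63 at levels of 1.62 to 12.7 CPM. The summed level of the region was 105.3 to 212.1 CPM at day 3, 60.7 to 126.4 at day 7 and 33.2 to 71.9 at day 14. DESeq2 called 4 of these miRNAs: miR-136-3p, miR-136-5p, miR-434-3p and miR-411-5p.

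The same miRNAs had values below 0 in the other time courses too. In the vehicle controls all 9 were below 0 between day 14 and day 3, with 0 called and 5 at an unadjusted p under 0.05 (8.84% of all miRNAs), and miR-434-3p gave -1.63 ± 0.65. At the middle dose all 9 were below 0 and 6 were called (4.27% of all miRNAs were), with a median of -2.52 and a value of -2.52 ± 0.51 for miR-434-3p (adjusted p = 0.00204). The tests of a difference between time courses, given further on for all miRNAs, called none of the 9 against either.

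The miR-200 family, known from epithelia and in liver from bile ducts, lay below 0 in all 7 of its tested members between day 14 and day 3. The median was -0.52, with 0 called and 4 apart, all lower (13.7% of all miRNAs were). miR-200b-3p stood at 766.6, 867.2 and 1165 CPM at day 3, at 1102, 718.5 and 671.5 CPM at day 7 and at 577.6, 566.3 and 579.4 CPM at day 14, and miR-200a-3p had a value of -0.52 ± 0.20. The day 14 libraries of miR-200b-3p lay close together and below all others, and the difference was -0.70 ± 0.23 (adjusted p = 0.0764). The same 7 were below 0 in the controls, with a median of -0.47, and at the middle dose, with a median of -0.63 and 2 called, both lower (2.74% of all miRNAs were).

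miR-29a-3p, miR-29b-3p and miR-29c-3p, which repress collagen messenger RNAs, had values of 0.54, 0.53 and 0.52 between day 14 and day 3, with standard errors of 0.18 to 0.20 and adjusted p of 0.105, 0.0835 and 0.0986. miR-29a-3p stood at 2791, 2511 and 2523 CPM at day 3 and at 4270, 3728 and 3405 CPM at day 14, miR-29c-3p at 508, 455 and 461 and then at 722, 692 and 634 CPM. In these miRNAs the day 14 libraries lay above those of day 3 and of day 7, as did 16.8% and 9.15% of all miRNAs. With library size alone the values were 0.28, 0.27 and 0.27. The miR-29 list also holds the tested miR-29a-5p and miR-29c-5p, and of its 5 tested members 4 lay above 0 and 1 below. Without day 14 replicate 1 the list's median was 0.37 and 0 members had an unadjusted p under 0.05. Without any other library of days 3 and 14, 3 members did. At the middle dose miR-29a-3p and miR-29c-3p rose, by 0.72 and 0.70 (adjusted p = 0.0276 and 0.0252), and miR-29b-3p gave 0.38; in the controls the values were 0.50, 0.40 and 0.41 for miR-29a-3p, miR-29b-3p and miR-29c-3p, with none called.

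**Figure D4:**
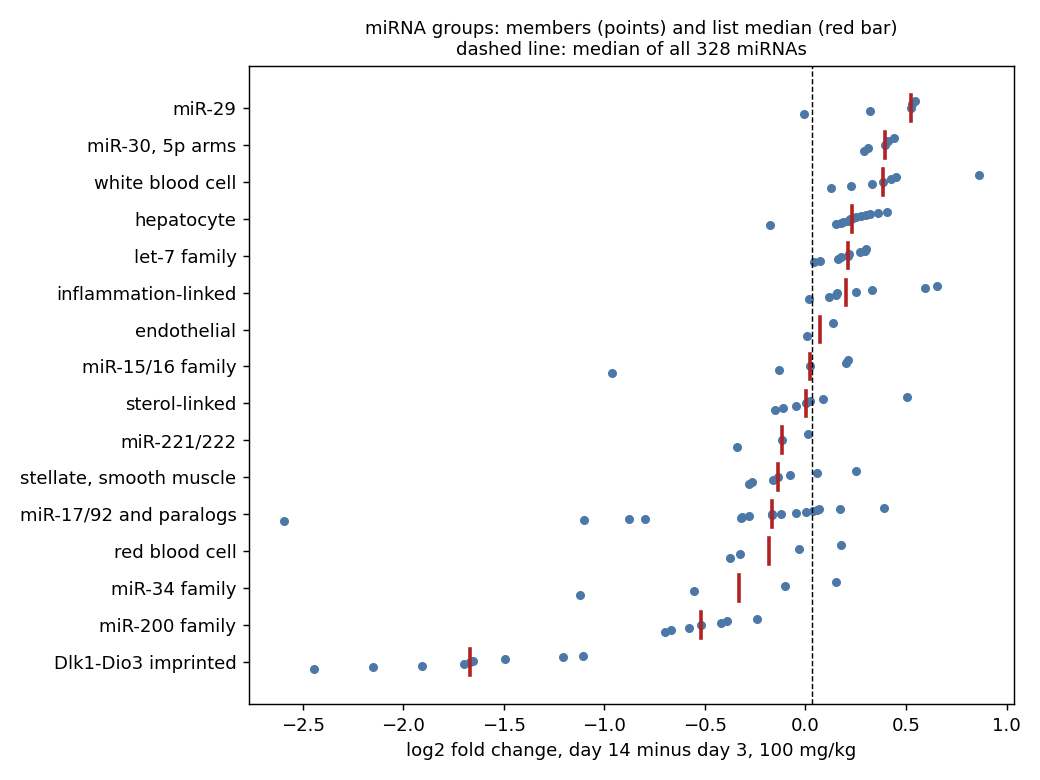
Log2 fold change of day 14 minus day 3 at 100 mg/kg for the tested members of each miRNA list (points), with the list's median (red bar) and the median of all 328 miRNAs (dashed line). The Dlk1-Dio3 members lie at -2.44 to -1.10, the miR-200 family below 0, and the miR-29 and miR-30 medians at 0.52 and 0.39.

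Of the inflammation-linked miRNAs, all 8 tested lay above 0 between day 14 and day 3, with a median of 0.20 and none called. The median was 0.08 without day 3 replicate 1 and 0.12 without day 14 replicate 1, with 6 of 8 above 0 each time, and 0.37 without day 14 replicate 3 and 0.36 without day 3 replicate 2. miR-21-5p, abundant in injured and regenerating liver, stood at 35628, 52517 and 38936 CPM at day 3, at 48577, 59612 and 50192 CPM at day 7 and at 56282, 80532 and 55028 CPM at day 14. The day 14 libraries lay above those of day 3, with a value of 0.59 ± 0.18 (adjusted p = 0.0764, and 0.0353 by DESeq2). Without day 14 replicate 2 the value was 0.35 (adjusted p = 0.52). miR-155-5p, induced in activated immune cells, was at 9.84 to 14.9 CPM at day 3 and 17.8 to 21.0 CPM at day 14 (0.65 ± 0.28, adjusted p = 0.171). With library size alone 3 members lay above 0 and 5 below. The list's median less that of all miRNAs was 0.17 under both scalings, a likeness again fixed by how scaling works.

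All 7 tested markers of white blood cells also lay above 0, with a median of 0.38 (with library size alone 5 did, and without day 14 replicate 2 the median was 0.23), none was called, and their summed level was 1827 to 2029 CPM at day 3, 1945 to 2869 at day 7 and 2274 to 2402 at day 14. miR-223-3p, of neutrophils and monocytes, gave 0.42 ± 0.20 and miR-150-5p, of lymphocytes, 0.38 ± 0.19 (adjusted p = 0.25 and 0.266). Their part in the values of miR-21-5p and miR-155-5p was not tested. The endothelial pair had a median of 0.07, the red blood cell list one of -0.18 with a summed level of 2575 to 4623 CPM at day 3 and 2741 to 3429 at day 14, and the list of stellate and smooth muscle cells one of -0.14. Each of these medians moved by over 1.5 times with a library left out: the red blood cell one was 0.17, with 3 of 4 above 0, without day 3 replicate 3, the endothelial one -0.03 without day 14 replicate 1, and the stellate one -0.07 without day 14 replicate 3 and -0.24 without day 14 replicate 1. None of their members was called, and with library size alone every member of these 3 lists lay below 0.

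The let-7 family, whose mature forms repress growth genes, had 9 of 9 members above 0 between day 14 and day 3, with a median of 0.21 and none called; without day 14 replicate 2 the median was 0.12, with 8 above 0. let-7a-5p gave 0.30 ± 0.13 and let-7g-5p 0.27 ± 0.11, with adjusted p of 0.184 and 0.162. With library size alone 3 lay above 0 and 6 below. The list's median less that of all miRNAs was 0.18 under both scalings, which is likewise no check of the list. miR-17/92 and the related clusters promote proliferation, and of 17 members tested 11 lay below 0 with none called (16 with library size alone, 6 of them called, where 33 of all 328 miRNAs were called, all lower). Without day 14 replicate 2, 16 lay below 0, and 1 was called without day 14 replicate 1 or 2. miR-92b-3p and miR-18a-5p gave -0.88 ± 0.26 and -0.80 ± 0.25 (adjusted p = 0.0599 and 0.0764), and without day 14 replicate 1 miR-18a-5p passed at -1.18 (adjusted p = 0.0334). The sterol-linked list, which holds miR-33 from the Srebf2 gene, had a median of 0.00 (-0.08 to 0.04 with a library left out) and none called, and of its members miR-182 gave 0.51 ± 0.21 (adjusted p = 0.166). The lists of miR-221 and its paralog, of hypoxia (miR-210), of skeletal and heart muscle and of pancreas had 3, 2, 2 and 1 tested members, and none of these was called.

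No miRNA was called between day 7 and day 3, and those with the smallest p there are given first. miR-92b-3p had the smallest p between day 7 and day 3, at 14.5, 17.8 and 17.6 CPM at day 3, 7.58, 9.24 and 10.3 CPM at day 7 and 9.87, 8.29 and 8.90 CPM at day 14. Days 7 and 14 overlapped and lay below day 3, with a value of -0.89 ± 0.25 for the first step (adjusted p = 0.428) and 0.01 ± 0.27 for the second. miR-328a-3p followed with 0.55 ± 0.17 and miR-484 with -0.72 ± 0.24 (adjusted p = 0.56 and 0.581). miR-331-3p, from a hairpin within Vezt, stood at 124, 128 and 154 CPM at day 3, 115, 77.6 and 78.3 at day 7 and 112, 46.4 and 71.6 at day 14. Its difference between day 14 and day 3 was -0.81 ± 0.27 (adjusted p = 0.078). Without day 14 replicate 1, the highest library of that day, it passed at -1.26 (adjusted p = 0.0334), and it also passed by DESeq2 (adjusted p = 0.0356) and with library size alone (-1.06, adjusted p = 0.0136).

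Between day 14 and day 7 the smallest p values belonged to miR-30a-5p (0.27 ± 0.09), miR-34a-5p (-0.90 ± 0.31) and miR-190a-3p (1.22 ± 0.43), each with an adjusted p of 0.504. miR-190a-3p was lowest at day 7, with 1.40 to 2.64 CPM there against 2.47 to 6.99 at day 3 and 3.73 to 5.08 at day 14. Of 96 hairpins with both arms tested, 63 had arms with the same sign of change between day 14 and day 3 and 33 had opposite signs, and in 1 the arms differed by more than 2-fold.

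Whether the high dose time course differed from that of the vehicle controls was tested as the difference of the 2 differences between days. Against the controls, edgeR's quasi-likelihood test called 0 of 328 miRNAs for day 7 minus day 3, for day 14 minus day 3 and for day 14 minus day 7 (0% each), and DESeq2 also called 0 in each. Unadjusted p values under 0.05 were found for 36 miRNAs (11%, higher in 4.27% and lower in 6.71%), 24 (7.32%, 4.57% and 2.74%) and 36 (11%, 8.23% and 2.74%). Leaving out control day 7 replicate 1 gave 19 calls for the first of these and 13 for the third. The smallest p values for day 14 minus day 3 belonged to miR-182 (1.03 ± 0.32) and miR-582-3p (-2.11 ± 0.70), both with an adjusted p of 0.565, and to miR-18a-3p, which had 0 counts in 2 of its 3 day 14 libraries and is given no fold change. For miR-15b-5p the controls gave -0.72 ± 0.21 between day 14 and day 3, and the difference from the high dose was -0.25 ± 0.28 (adjusted p = 0.947). For miR-30a-5p the controls gave 0.11 ± 0.10, and the difference was 0.30 ± 0.14 (adjusted p = 0.67).

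Against the middle dose, 3 miRNAs differed in their change from day 3 to day 14 (0.915%), all lower at the high dose, with 16 at an unadjusted p under 0.05 (4.88%, higher in 1.52% and lower in 3.35%); DESeq2 called 4. None was called for day 7 minus day 3 (16 unadjusted, 4.88%, higher in 0.915% and lower in 3.96%) or day 14 minus day 7 (16, 4.88%, higher in 3.35% and lower in 1.52%), by either tool. These were both arms of miR-582 and miR-331-3p. miR-582-5p had a mean of 4.40 CPM (SD 2.08, n = 3) at day 3 and 10.4 (SD 3.25) at day 14 of the middle dose, against 11.6 (SD 6.81) and 3.34 (SD 1.10) at the high dose. The change was 1.23 ± 0.41 at the middle dose (adjusted p = 0.0852) and -1.83 ± 0.45 at the high dose, and their difference was -3.06 ± 0.61 (adjusted p = 0.00658). For miR-582-3p the changes were 1.48 ± 0.47 and -1.51 ± 0.47, with a difference of -2.99 ± 0.66 (adjusted p = 0.019). For miR-331-3p they were 0.75 ± 0.27 and -0.81 ± 0.27, with a difference of -1.56 ± 0.38 (adjusted p = 0.0283).

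All 3 calls were lost without high dose day 3 replicate 2, where the values were -2.51, -2.36 and -1.60 (adjusted p = 0.0537, 0.068 and 0.0537). Of 21 alternatives, 19 kept the call on miR-582-5p, 17 that on miR-582-3p and only 12 that on miR-331-3p. Against the controls, the differences in change for the same 3 were -1.74 ± 0.64, -2.11 ± 0.70 and -0.87 ± 0.41, with adjusted p of 0.565, 0.565 and 0.67. For miR-15b-5p the middle dose gave 0.00 ± 0.19 between day 14 and day 3 and the difference was -0.96 ± 0.26 (adjusted p = 0.0787).

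**Figure D5:**
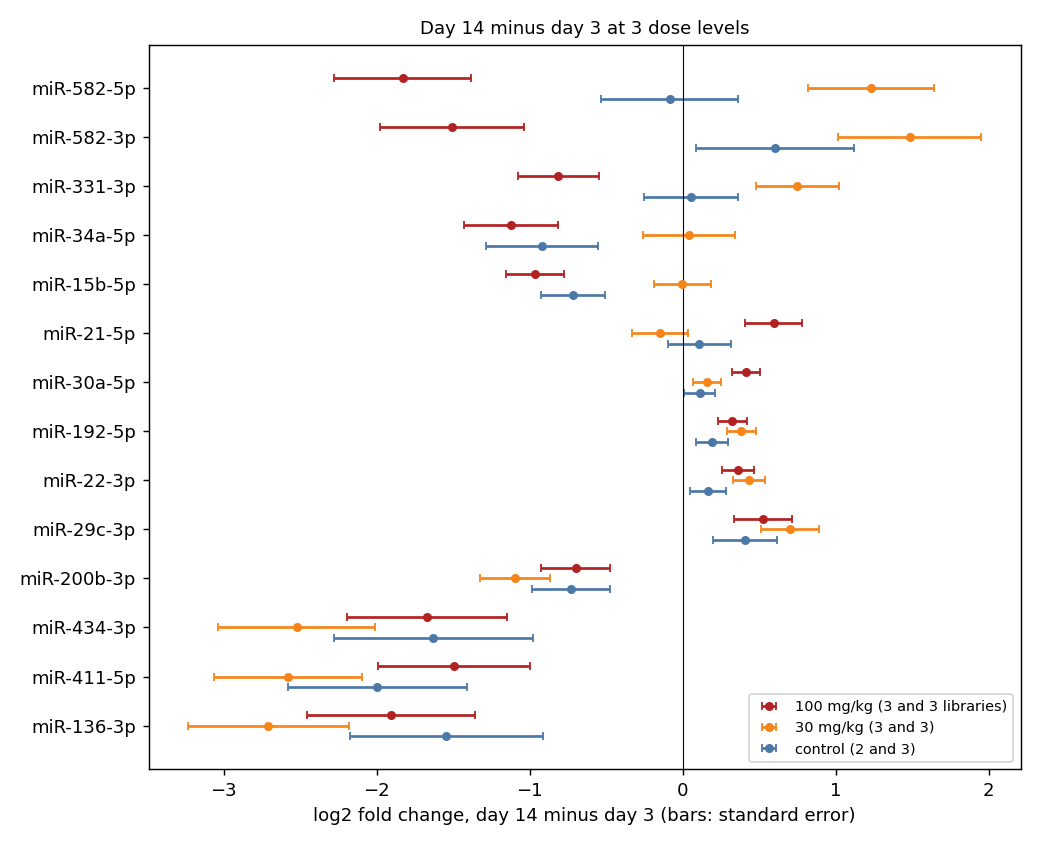
Log2 fold change of day 14 minus day 3 (points, bars are standard errors) for 14 miRNAs at 100 mg/kg, at 30 mg/kg and in vehicle controls. miR-582-5p, miR-582-3p and miR-331-3p lie on opposite sides of 0 at the 2 doses, while miR-434-3p, miR-411-5p and miR-136-3p lie below 0 in all 3 time courses.

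Across the 239 miRNAs with a mean of at least 10 CPM, the differences between day 14 and day 3 at the high dose ran with those of the controls (Pearson r = 0.557, Spearman rho = 0.38) and of the middle dose (r = 0.517, rho = 0.337). Over all 328, low counts included, the values were r = 0.149 and rho = 0.287 against the controls and r = 0.413 and rho = 0.261 against the middle dose. Between day 7 and day 3 they were r = 0.091 against the controls and 0.174 against the middle dose over the 239, and -0.089 and 0.303 over all 328. These describe agreement across miRNAs, which are not independent replicates; the time courses share no library, but all entered 1 scaling and 1 fit.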

How the data were processed

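The authors deposited raw read counts per mature miRNA, not normalized, for 763 rat miRNAs in 37 columns; per the labels, small RNA libraries were made with TruSeq Small RNA kits from total RNA of liver. The build named in the submitters' processing notes is rn6. How reads were aligned, annotated and, where they match several miRNAs, shared out was not given in the sources used here, so counts of near-identical family members are uncertain. Columns were matched to samples by name; middle dose day 14 replicates 2 and 3 had 2 runs each, which were summed. Replicate libraries of a day at the high dose differed by more than counting noise (chi-square per degree of freedom 37.9 to 115), so none was taken as deposited more than once.

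Counts were filtered with filterByExpr (minimum count 10, minimum total 15), scaled by TMM and modelled with edgeR 4.0.16 under R 4.3.3; each group of all 35 libraries had its own mean, which leaves 23 residual degrees of freedom; p-values of robust quasi-likelihood F-tests were adjusted over the 328 miRNAs of a comparison (Benjamini-Hochberg), with a threshold of 0.05. Values after ± are standard errors, obtained from each F as the size of the log2 fold change over its root. CPM use TMM-scaled library sizes; log2 CPM for principal components have a prior count of 2. The labels used here name no batch. The steps were tested on simulated counts.

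The comparisons, lists and alternatives were chosen with earlier results of these data known. The rule named up to 10 miRNAs each way per comparison among those passing with a mean of at least 10 CPM and no overlap of libraries, the 3 smallest p where fewer than 3 passed, up to 4 each way per interaction, up to 3 of each list and 7 that are always given. List members with an unadjusted p at or above 0.05 between day 14 and day 3 are mostly given by counts. The miR-30 lists, miR-15b-3p, miR-16-5p, miR-26a-5p, miR-26b-3p, miR-361-3p, miR-409a-5p, miR-411-5p and miR-582-5p in the comparison with the middle dose were chosen after their values were seen.

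Alternatives were scaling by library size alone or by the size factors of DESeq2 1.42.0, its own test, dropping the low-count filter or raising it to 10 CPM in 3 or more libraries, the replicate number as a block, thinning to 2665943 counts, the compared libraries alone, each library left out in turn and, added after the data were seen, run 1 alone of the repeated libraries.

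Same-numbered libraries of days 7 and 14 deviated together (correlations of 0.126, 0.124 and 0.115 for replicates 1, 2 and 3). These were just over the minimum of 0.1 set for this check. Those of day 3 did not meet it in all pairs with either day. The reported tests used no pairing, and the replicate number entered only as a block among the alternatives.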

Additional observations from a re-analysis of the deposited data

Results flagged for a closer look

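In 3 miRNAs the change from day 3 to day 14 at the high dose differed from that at the middle dose by a test of the difference itself. The difference, high minus middle dose on the log2 scale, was -3.06 for miR-582-5p, -2.99 for miR-582-3p and -1.56 for miR-331-3p, with adjusted p of 0.00658, 0.019 and 0.0283 by edgeR's quasi-likelihood test. Both arms of miR-582 come from 1 hairpin and are not independent. With run 1 alone of the repeated middle dose libraries the values were -2.85, -2.97 and -1.50 (adjusted p = 0.0195, 0.0195 and 0.0432). The call on miR-331-3p was kept in 12 of 21 alternatives. The level of miR-582-3p in high dose day 3 replicate 2, 146 CPM, was the highest of the 9 libraries.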

How the results depend on the processing

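The count of miRNAs called between day 14 and day 3, 3 by the reported fit, was 33 with library size alone (0 higher, 33 lower, against 1 higher and 2 lower), 1 with no low-count filter, 23 with DESeq2 (10 higher) and 22 in a fit on the 9 high dose libraries (10 higher); it ranged from 1, without day 3 replicate 3, to 3 when each library was left out. Library size alone moved the median of all miRNAs by -0.26 in this comparison and by -0.17 for day 14 minus day 7, and turned 2 named miRNAs: miR-143-3p from 0.25 to -0.011 and miR-22-5p from 0.21 to -0.05. The count for any difference between days, 1, was 21 with library size alone, 5 with DESeq2, 2 after thinning, 7 in the 9 libraries alone, and 0 to 3 with a library left out: 3 without day 3 replicate 1 and 0 without day 3 replicate 3 or any 1 of the day 14 libraries. The 3 calls against the middle dose became 1 with no filter and ranged from 0 to 5 with a library left out: 0 without high dose day 3 replicate 2, 1 without middle dose day 3 replicate 3 and 5 without middle dose day 14 replicate 1. Against the controls the counts, all 0, ranged from 0 to 19 for day 7 minus day 3 and from 0 to 13 for day 14 minus day 7, the highest without control day 7 replicate 1. The cause was not tested for any of these.

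Correlations of the deviations of same-numbered libraries ran from -0.201 to 0.178. They were over 0.1 in 5 of 9 pairs, including the 3 pairs of days 7 and 14 but not all pairs of day 3 with either, and 4 of 9 libraries correlated best with their own number; the labels give the numbers no meaning. With the replicate block the count between days 14 and 7 was 0, as without it. With the replicate block the counts were 3 between day 14 and day 3 and 2 for any difference; with the block in the 9 libraries alone they were 25 (13 higher) and 9, and miR-21-5p was 0.55 (adjusted p = 0.00174; 0.0723 with the block in all libraries). Of 184 alternative counts over 10 comparisons, 161 were 0 like the reported count or lay within 1.5 times it. Most of these comparisons had a reported count of 0, so this share says little of those with calls, whose ranges are given above.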
